A study of Mus musculus with 36 samples.

Results

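The H2 genes are the mouse major histocompatibility complex, and their H3K9me3 was followed here in the liver. A member was any row on chromosome 17 of the 6 deposited tables of differential H3K9me3 whose assigned gene symbol starts with H2-. Each row is 1 bin of at most 501 bp inside a called peak, assigned to the gene with the nearest transcription start site (TSS). The members were 86 of 120683 bins in the age table of control females and 99 of 148133 in that of control males. For maternal obesity (MO) they were 100 of 140214 bins in 3-week females, 105 of 159357 in 3-week males, 83 of 116257 in 8-week females and 65 of 102145 in 8-week males. Together they named 38 H2 symbols.

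The study profiled H3K9me3 by ChIP-seq in livers of male and female offspring of dams that ate either a Western-style diet, which made them obese, or a control diet. Livers were taken at 3 weeks, at the end of suckling, or at 8 weeks, after weaning to a chow diet, so the 8-week MO offspring no longer ate the dams' diet. There were 32 ChIP libraries in 8 groups of 4, defined by sex, age and dam's diet, and 4 input libraries from the control groups. Per the study's methods, the animals included floxed littermate controls of a Reg3g fl/fl colony on a C57BL/6J background, the dams were mated with wild-type C57BL/6J males, and offspring were Reg3g-fl/+ or Reg3g-fl/fl. How these genotypes were spread over the groups is not given in the sources used here. The tables hold comparisons of whole groups and no value of a single library, so the spread between libraries cannot be seen for a bin. Given below are each bin's p-value and an approximate standard error (SE) worked back from it, which do not measure that spread directly.

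MHC molecules display peptides to T cells. Class I molecules (H2-K1 and H2-D1 in this strain) sit on nearly all nucleated cells and show peptides made inside the cell, whereas class II molecules (H2-A and H2-E) are made mainly by B cells, dendritic cells and macrophages, in liver including Kupffer cells, and show peptides taken up from outside. The class Ib genes of the Q, T and M regions are class I relatives, many with restricted or no expression, and H2-DM loads and edits peptides on class II in the endosome, where H2-O inhibits it. H3K9me3 is a histone mark of heterochromatin, deposited over repeats and silenced gene clusters. Liver is a mixture of cell types, and in bulk chromatin a smaller number of cells carrying the mark and less mark per cell cannot be told apart.

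As a check of the tissue label, H3K9me3 bins were looked for at marker genes, with the caution that bins are not expression. They were assigned to 6 of 8 hepatocyte markers, not to Alb or Fgb, and to 4 of 4 B cell, 5 of 5 macrophage and dendritic cell, 3 of 4 T cell, 3 of 3 liver endothelial and 3 of 3 neuronal markers. Markers of every list were thus marked somewhere, and these lists do not tell the cell types of the sample.

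Of the 6 bins called with age, the male bins of H2-K1 and H2-Ab1 lay over exons of the peptide-binding domain, and sequence from these exons is shown first, with that of H2-D1 for comparison. Exon 2 of a class I gene encodes the alpha 1 domain, which forms one side of the peptide groove. Coordinates and bases are those of mouse GRCm38 (mm10), and in the class I pair the capitals mark the bases at which H2-K1 and H2-D1 differ. Exon 2 of H2-K1 lies at chr17:33999734-34000003 on the minus strand and exon 2 of H2-D1 at chr17:35263379-35263648 on the plus strand.
H2-K1 exon 2: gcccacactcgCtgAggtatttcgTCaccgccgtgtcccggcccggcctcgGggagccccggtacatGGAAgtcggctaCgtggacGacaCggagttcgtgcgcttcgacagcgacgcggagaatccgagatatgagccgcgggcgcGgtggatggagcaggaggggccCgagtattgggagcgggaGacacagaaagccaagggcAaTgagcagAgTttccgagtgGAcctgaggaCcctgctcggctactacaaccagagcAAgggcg
H2-D1 exon 2: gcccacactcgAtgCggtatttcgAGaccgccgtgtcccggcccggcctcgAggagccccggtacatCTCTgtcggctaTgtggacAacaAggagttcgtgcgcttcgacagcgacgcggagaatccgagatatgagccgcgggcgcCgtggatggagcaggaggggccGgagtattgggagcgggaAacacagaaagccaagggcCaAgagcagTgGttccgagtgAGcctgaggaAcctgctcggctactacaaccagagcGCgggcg
Only 24 of the 270 bases differed, an identity of 91.1%. Exon 2 of H2-Q1, H2-Q2, H2-Q6, H2-Q7 and H2-Q10 was 87.4% to 88.5% identical to that of H2-K1, H2-T23 86.7%, H2-T3 73.7%, H2-M2, H2-M3 and H2-M5 65.6% to 69.6%, and the genes H2-M9 to H2-M11 49.3% to 58.1%. Reads from these similar Q, K and D exons may have been assigned to the wrong copy or dropped, and the signal at these places is uncertain for that reason.

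Of the class II locus, a stretch of 300 bases of H2-Ab1 is shown, the middle of a bin whose mark differed between ages in males, with CpG dinucleotides in capitals. It lies at chr17:34264992-34265291 and begins in exon 2 and runs into the next intron. It is printed on the plus strand, along which the gene is transcribed.
H2-Ab1 exon 2 and intron: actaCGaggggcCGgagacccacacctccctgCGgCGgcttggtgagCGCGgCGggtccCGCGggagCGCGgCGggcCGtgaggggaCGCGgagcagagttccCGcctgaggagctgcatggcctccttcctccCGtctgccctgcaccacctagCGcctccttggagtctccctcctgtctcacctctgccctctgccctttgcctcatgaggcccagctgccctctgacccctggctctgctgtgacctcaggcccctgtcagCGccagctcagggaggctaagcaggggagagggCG
The stretch held 20 CpG and 70.3% GC. Over all member bins of the age tables the median was 1.8 CpG per 100 bp in females and 1.6 in males, against 2 and 1.92 for chromosome 17.

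H3K9me3 bins were spread over most of the complex but not over every gene. The outermost member bins lay 3.51 Mb apart, at chr17:33970749-37483396. Of the 38 symbols, 29 had a bin in all 6 tables and 9 in 1 to 5 of them. The annotation (GENCODE vM21) holds 11 further H2 genes that received no bin, namely H2-Ke6, H2-M3, H2-M10.5-ps1, H2-M6-ps, H2-Pa, H2-Pb, H2-Q3, H2-Q5, H2-Q6, H2-Q7 and H2-Q10. For 4 of these, H2-M6-ps, H2-Pa, H2-Pb and H2-Q3, bins did lie over the gene body but were assigned to other genes. H2-Q10, which encodes a secreted class Ib molecule made by hepatocytes, had no bin over its body in any of the 6 tables.

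A symbol beginning with H2- was a statement of nearness more often than of overlap. Of 303 distinct member bins, 128 overlapped the gene they were assigned to, 62 overlapped only another gene and 113 overlapped none. Of the 128, 118 matched by symbol and the others by Ensembl identifier, since H2-Ea, H2-T25, H2-T26 and H2-T27 are named H2-Ea-ps, Gm7030, Gm8909 and Gm11127 in GENCODE. GENCODE holds no gene named H2-L, and the tables give no Ensembl identifier for it. Of its 17 bins 6 overlapped another gene and 11 none, and 1 of its places, at chr17:35265786-35266205 in females, lay inside H2-D1. By the deposited annotation 44.2% of member bins in females and 42.4% in males were at promoters, against 21.1% and 20.3% of all bins. Bins of other genes between the outermost members were at promoters still more often, 60.9% and 57.0%.

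Promoter-class here means within 3 kb of a TSS, and few members reached the core promoter. RefSeq windows of 300 bases around a TSS (GRCm38) were matched for 27 of the 38 member genes, and 35 windows of 32 H2 genes were examined. Member bins overlapped 7 windows, those of H2-D1, H2-DMb1, H2-DMb2, H2-Eb2, H2-Q2, H2-T3 and H2-M5. The window of H2-D1 at chr17:35262844-35263143 (plus strand) is printed because a female bin began within it, with the motif matches searched below in capitals.
H2-D1 promoter window: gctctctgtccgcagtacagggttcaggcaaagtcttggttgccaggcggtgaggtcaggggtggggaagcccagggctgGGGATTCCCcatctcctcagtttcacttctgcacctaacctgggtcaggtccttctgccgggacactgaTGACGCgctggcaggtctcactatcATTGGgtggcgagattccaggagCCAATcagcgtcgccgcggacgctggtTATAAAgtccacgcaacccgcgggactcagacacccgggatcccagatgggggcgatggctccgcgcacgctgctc
The kappaB motif GGGATTCCC was in 5 of the 35 H2 windows (H2-D1, H2-K1, H2-Q6 and H2-Q7) and in 0.353% of all 32851 windows, counting both strands. CCAAT, the core of the Y box, was in 31 of 35 against 37.4%, TGACGC in 5 of 35 against 7.40%, and TATAAA in 16 of 35 against 13.6%. The interferon-response core GAAANNGAA was in 2 of 35, those of H2-T22 and H2-T23, against 8.56%. No member bin overlapped a window of H2-K1. A match is only a run of letters, and these counts describe the windows and not binding.

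Among the members, the level of H3K9me3 was near that of the rest of the genome. Levels are the tables' average read counts scaled to library size (CPM) over the libraries of each comparison, and they are compared here between bins of the same 501 bp, since shorter bins had a higher CPM per kb. The median full-length member bin had 6.71 CPM against 6.22 for all bins in the age table of females, and 4.24 against 4.3 in that of males. In the 4 MO tables the members' median was 5.42, 4.24, 6.32 and 6.80 CPM against 5.26, 4.08, 6.11 and 6.66 (3-week females, 3-week males, 8-week females, 8-week males). Scales differ between tables, so levels are not compared across them.

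Within the complex, the M region had the highest group median in both age tables and the class II genes low ones. In males the M region was only just above the Q region. Full-length class Ib M bins, 6 in females and 9 in males, had a median of 7.65 and 4.95 CPM. The Q region, with 5 and 6 such bins, had 6.88 and 4.92. Class II A and E bins had 6.41 and 3.72, and bins of H2-DM and H2-O 5.76 and 3.79. In the 3-week MO tables the Q region was above the M region, with 6.25 against 5.28 CPM in females and 4.63 against 4.46 in males. M-region bins of any length were also rich in repeats, with a median of 58.2% of bases repeat-masked in females and 60.3% in males. Of the 21 female bins of any length 18 were distal intergenic. Members over 50% masked had 7.50 CPM against 6.56 for the others in females, and 5.71 against 4.10 in males. The same order was seen in all bins, 7.16 against 6.12 and 4.87 against 4.24. The part of repeat content in the height of the M region was not tested.

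**Figure D1:**
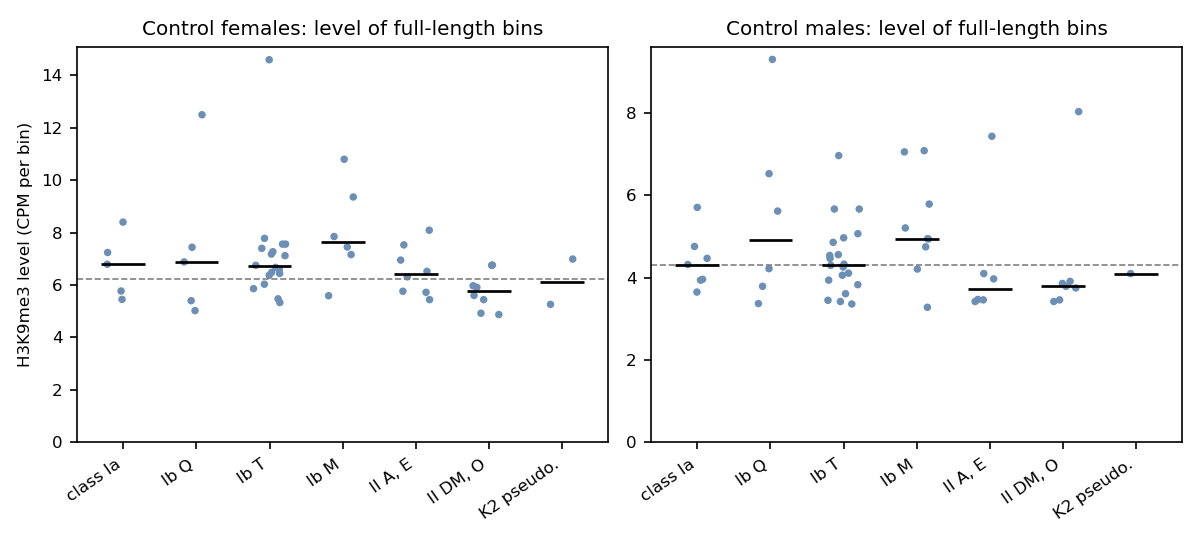
Average H3K9me3 level (CPM, 1 point per full-length 501 bp member bin) by group of H2 genes in the 2 age tables, with the median of each group as a black bar and the median of all full-length bins as a dashed line (the panels have y axes of their own). M-region bins sit highest at the median among the larger groups (7.65 CPM over 6 bins in females, 4.95 over 9 in males) and H2-DM and H2-O bins low (5.76 and 3.79). The highest single points are at H2-Bl in females (14.6) and H2-Q4 in males (9.31).

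By CPM per bin, without regard to its length, the highest member in every table was an intergenic one assigned to H2-Bl, a class I gene of the T region annotated as a polymorphic pseudogene. At chr17:36076269-36076769 it had 14.6 CPM in the age table of females, and 38.3% of its bases were repeat-masked. At chr17:36076297-36076778 it was 482 bp long, 34.0% masked and had 10.4 CPM in that of males. It had 10.7, 8.11, 15.8 and 19 CPM in the MO tables of 3-week females, 3-week males, 8-week females and 8-week males. An intergenic bin assigned to H2-Q4, upstream of that gene, was among the 3 highest in all 6 tables. It had 12.5 CPM in females at chr17:35363208-35363708 and 9.31 CPM in males at chr17:35363162-35363662, and was 71.1% and 75% repeat-masked. The other bins among the 3 highest were intergenic and, unlike that of H2-Bl, over 50% masked: H2-M11 (10.8 CPM in females), H2-Ob (8.04 CPM in males), H2-M10.4 (8.15 and 12.6 CPM in the female MO tables of 3 and 8 weeks), H2-M9 (6.93 CPM in the 3-week male MO table) and H2-M11 again (12.2 CPM in the 8-week male MO table). Levels in the MO tables are averages over MO and control libraries together, and those in the age tables are averages over control libraries of both ages. Per kb, a bin shorter than 501 bp led in all 6 tables. In that of 8-week males it was the 482 bp bin of H2-Bl, and elsewhere other bins, for example H2-M10.5 in the age table of females (29.4 CPM per kb over 210 bp, H2-Bl 29.1) and H2-Eb2 in that of males (27.6 over 148 bp, H2-Bl 21.7).

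Several of these places were retained with the same coordinates in all 3 tables of a sex. In females these were led by H2-Bl, H2-Q4, H2-M11 and a pair of H2-M10.4 bins, with age changes of 0.41, 0.48, 0.18, 0.70 and 0.45 on the log2 scale. In males they were led by H2-Bl, H2-Q4, H2-M9, H2-M11 and H2-M10.5, with 0.72, 0.19, 0.32, 0.30 and 0.90. These were the highest by level, and none reached FDR 0.05. Over all such places the age change was above 0 at 20 of 41 in females and 21 of 31 in males.

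The first question was whether the mark at H2 genes differs between 3 and 8 weeks in control offspring. In females 2 of 86 member bins passed FDR 0.05, 1 higher at 8 weeks and 1 lower, both assigned to H2-DMa. In males 4 of 99 passed, at H2-K1, H2-Ab1, H2-T27 and H2-Bl, and all 4 were higher at 8 weeks. These 4 and the higher female bin no longer passed once the median change of bins of like GC content and level was subtracted (FDR 0.216 to 0.324), as described further on. The background was similar: 2.72% of all bins passed in females (1.49% higher, 1.23% lower) and 4.41% in males (2.42% higher, 1.99% lower), against 2.33% and 4.04% of members. At an unadjusted p of 0.05 the members numbered 11 (12.8%, background 17.5%) in females and 19 (19.2%, background 21.8%) in males. All changes below are log2 differences, 8 weeks minus 3 weeks, and the p-values and FDR are those of the exact test in the authors' deposited table, which compares 4 libraries with 4.

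The members as a whole were centred. In females the median change was 0.00, with 43 bins above and 43 below 0, against -0.03 for all bins, and the middle 50% of members lay between -0.38 and 0.38. In males it was -0.06, with 46 above and 53 below, against -0.05.

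**Figure D2:**
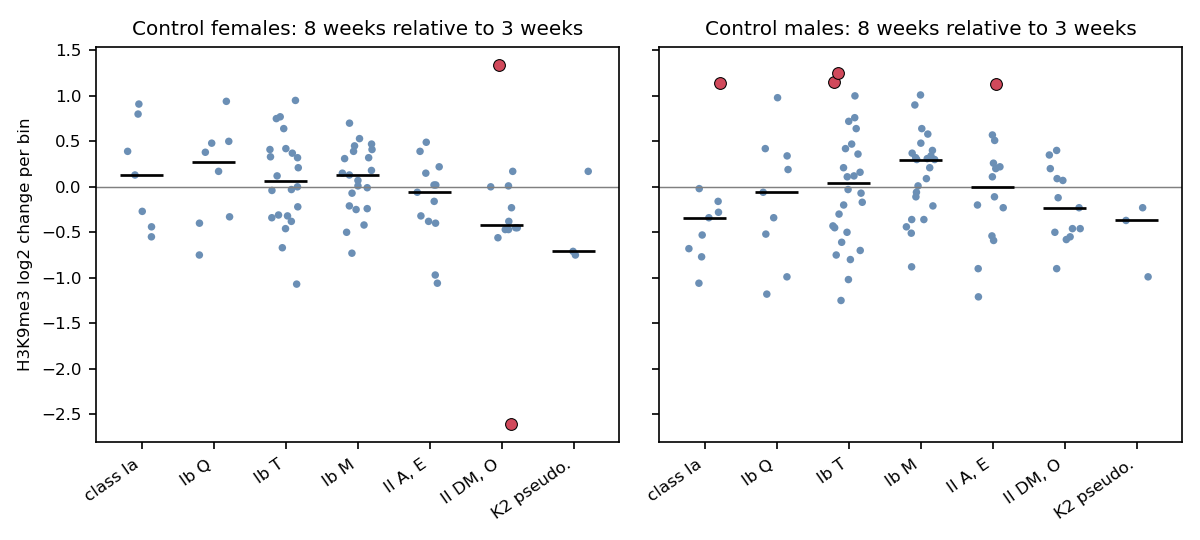
Log2 change in H3K9me3 from 3 to 8 weeks (y axis, positive is higher at 8 weeks) for each member bin of control females and control males, by group of H2 genes, with bins at FDR under 0.05 in red and group medians as black bars. Points scatter on both sides of 0 in most groups, and the single largest change is the H2-DMa bin at -2.61 in females.

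The largest change of any member was a loss in H2-DMa, the alpha chain of the class II peptide-loading chaperone. The bin at chr17:34126950-34127450 lay in an intron, 4104 bp from the assigned TSS, in a peak of 744 bp. It fell by 2.61 (approximate SE 0.45) with an FDR of 1.06e-05 by the exact test, at an average of 5.91 CPM. It was the smallest p of all 5469 chromosome 17 bins of that table. The bin was CpG-poor, with 7 CpG in 501 bp. In males the peak over this place was 7386 bp long and the retained bin lay elsewhere in it, at chr17:34133255-34133640, with -0.46 (exact p = 0.274), so the same bases cannot be compared between the sexes. With MO the female bin differed by -0.43 at 3 weeks (exact p = 0.184), a comparison that shares its 3-week controls with the age table.

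A second H2-DMa bin went the other way in the same females. At chr17:34119306-34119806 the change was 1.34 (approximate SE 0.41) with an FDR of 0.0451 by the exact test. This bin lay at the start of the longest H2-DMa transcripts but within exon 2 of Brd2, a bromodomain gene on the opposite strand, and held 55 CpG at 67.1% GC. The 3 remaining female H2-DMa bins had -0.38, -0.45 and -0.56, none of them called. The 2 male bins had -0.46 and -0.58.

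Bins assigned to the other chaperone genes gave no call, although a bin inside H2-Oa that the tables assign to BC051537 was called in both sexes, with values given with the other genes of the interval. H2-DMb1 and H2-DMb2 encode beta chains of H2-DM. Their values were -0.23 for H2-DMb2 and between 0.00 and 0.17 for H2-DMb1 in females, and -0.12 and between -0.90 and 0.40 in males, where the lowest, at chr17:34157311-34157644, had an exact p = 0.0214 and an FDR of 0.219. H2-Oa and H2-Ob form H2-O, an inhibitor of H2-DM. In females the bin assigned to H2-Oa had -0.47 and H2-Ob -0.47 and -0.45. In males the 4 bins assigned to H2-Oa lay between -0.50 and 0.20 and the 3 H2-Ob bins between -0.55 and 0.35. Over the whole group 9 of 12 female bins and 8 of 13 male bins were below 0, with medians of -0.41 and -0.23 against -0.03 and -0.05 for all bins.

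H2-Ab1, the beta chain of the class II molecule I-A, was called in males. Its bin at chr17:34264891-34265391 overlapped exon 2, which encodes the peptide-binding beta 1 domain, by 143 bp. The change was 1.13 (approximate SE 0.31) with an FDR of 0.0176 by the exact test, at 7.44 CPM, and the bin held 40 CpG. The other 5 male H2-Ab1 bins lay between -0.54 and 0.26. In females the peak over this exon was represented by another bin, chr17:34263329-34263829 over exon 1, which had -0.32 (exact p = 0.321), and the 5 female bins lay between -0.38 and 0.15. The male call at H2-Ab1 therefore rests on 1 bin with no female bin at the same bases.

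H2-Aa, the partner alpha chain, had values below 0 upstream of its TSS in both sexes. The female bin at chr17:34289257-34289757 had -1.06 (exact p = 0.00850, FDR 0.156) and the male bin at chr17:34289437-34289874 had -0.59 (exact p = 0.121). A further male bin at chr17:34280740-34280991, beyond the 3' end of the gene, had -1.21 (exact p = 0.00825, FDR 0.131), and the one within the gene 0.22. H2-Eb1, the beta chain of I-E, ranged from -0.97 (chr17:34314070-34314570, exact p = 0.00774, FDR 0.149) to 0.49 over 5 female bins and had 0.57 and 0.20 in males. H2-Eb2 had 0.02 in females and -0.23 in males. H2-Ea, which in this strain does not make a protein, had 0.22 in females and 0.51 and -0.90 in males. None of these passed FDR 0.05.

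Among the class Ia genes, H2-K1 was the one called. The male bin at chr17:33999456-33999956 began 391 bp and ended 891 bp after a TSS of the gene (GENCODE vM21) and covered 223 of the 270 bases of exon 2, as well as 91 bp of exon 3. Its change was 1.14 (approximate SE 0.34) with an FDR of 0.0309 by the exact test, at 5.71 CPM, and it held 53 CpG and no repeat. The overlapping female bin at chr17:33999426-33999926 had 0.80 (approximate SE 0.34) with an exact p = 0.0186 and an FDR of 0.230. The remaining male H2-K1 bins, over exons 4 and 5 and upstream of the gene, had -0.77 and -0.02. Only the exon 2 and 3 bin was called.

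H2-D1 gave opposite signs at different bins. In females the bin at chr17:35263016-35263516, over the end of the promoter window printed above and exons 1 and 2, had 0.91 (exact p = 0.00688, FDR 0.140). In males the retained bin lay upstream, at chr17:35261699-35262199 at a position of -531 bp from the TSS, with -1.06 (exact p = 0.0137, FDR 0.174). The bins do not overlap, so these values are no difference between the sexes. The bins called H2-L ranged from -0.55 to 0.39 in females and from -0.68 to -0.16 in males. Of all class Ia bins 4 of 7 were above 0 in females and 1 of 9 in males, the H2-K1 bin.

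The T region, which holds class Ib genes recognised by specialised lymphocytes and natural killer cell receptors, gave 2 calls in males, both over repeats. The H2-T27 bin at chr17:36068080-36068580 lay upstream of the gene, at -9709 bp from its TSS, and was 97.2% repeat-masked. Its change was 1.25 (approximate SE 0.32) with an FDR of 0.00845 by the exact test. Females had 0.95 at the same place (exact p = 0.00429, FDR 0.108). The H2-Bl bin at chr17:36071288-36071587, 10400 bp from the TSS it was assigned to and 98.0% masked, was a peak of its own with 1.15 (approximate SE 0.34) and an FDR of 0.0309, and no female bin was retained there. Reads in such repeats can be placed at more than 1 copy, and how the authors treated them is not given in the sources used here.

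The remaining T-region genes had no call. H2-T26 had 0.77 in females (exact p = 0.0390) and 1.00 in males (exact p = 0.00390, FDR 0.0867) at its TSS. H2-T24 had -1.07 in females (exact p = 0.00343, FDR 0.0955) and -0.43 in males. H2-T23, which encodes Qa-1, the ligand of the inhibitory receptor CD94/NKG2A, had -0.22 and -0.30, and H2-T22, a ligand of gamma-delta T cells, -0.34 and 0.12. H2-T3, which encodes the thymus leukaemia antigen, ranged from -0.46 to 0.37 in females and from -1.25 to 0.76 in males, the lowest at chr17:36201588-36202088 within a neighbouring pseudogene (exact p = 0.00341, FDR 0.0800). Values above 0 were seen at 11 of 22 female bins and 14 of 28 male bins of the region.

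In the Q and M regions no bin passed FDR 0.05. Over the H2-Q3 pseudogene, bins assigned to H2-Q2 had 0.98 in males (chr17:35359104-35359604, exact p = 0.00212, FDR 0.0602) and 0.50 in females at an adjacent bin. The Q bins ranged from -0.75 to 0.94 in females and from -1.18 to 0.98 in males. In the M region 13 of 21 female and 15 of 23 male bins were above 0, with medians of 0.13 and 0.30. The highest male values there were 1.01 at H2-M9 (chr17:36628587-36629087, exact p = 0.00682, FDR 0.118) and 0.90 at H2-M10.5 (chr17:36743713-36744213, exact p = 0.00399, FDR 0.0879), intergenic places where females had 0.13 and 0.07. The pseudogene H2-K2, at the centromeric end, had a median of -0.71 over 3 female bins and -0.37 over 3 male bins.

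Female and male values were set side by side at the places where bins of both sexes overlapped by at least 50%, since the sexes share no library. Of 40 such H2 places 31 (77.5%) had the same sign, 18 higher and 13 lower at 8 weeks. For all bins it was 35347 of 54633 (64.7%). At 3 of the 40, H2-K1, H2-T27 and H2-T26, both sexes had an unadjusted p under 0.05, and all 3 were higher, a share of 7.50% against 5.23% of all such places. The age change differed between the sexes by more than 2 approximate SE at 1 of the 40 (2.5%, against 6.32% of all such places). This was a bin assigned to H2-M10.5, chr17:36751604-36751879 in females, with -0.73 in females and 0.48 in males, a difference of 1.21 (approximate SE 0.55). The SE is worked back from p-values, so this is a description and no test.

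**Figure D3:**
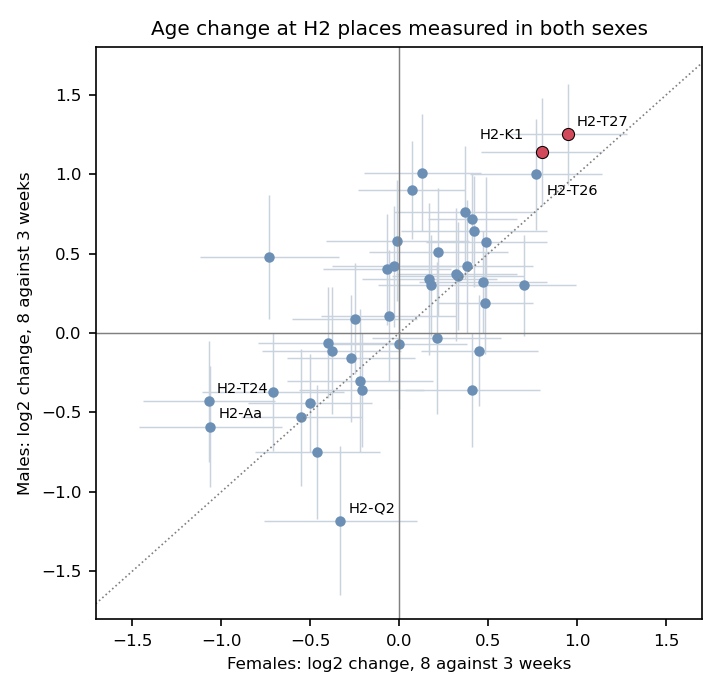
Log2 age change in control males (y axis) against control females (x axis) at the 40 H2 places retained in both sexes, with bars for the approximate SE, a dotted line of equality and, in red, places called in males at FDR under 0.05. Most points, 31 of 40, lie in the quadrants of equal sign, and H2-K1, H2-T27 and H2-T26 lie in the upper right.

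Part of the age change followed the base composition and level of a bin, over all bins and not only in the complex. When the median change of bins of like GC content and level was subtracted, the bins called over the whole table went from 3285 to 1147 in females and from 6527 to 2490 in males. The H2-DMa loss kept a change of -2.35 and an FDR of 0.000952. The H2-DMa bin within Brd2 went to 0.93 (FDR 0.269), H2-K1 to 0.68 (FDR 0.303), H2-Ab1 to 0.61 (FDR 0.324), H2-T27 to 0.74 (FDR 0.216) and H2-Bl to 0.71 (FDR 0.282). A male bin at H2-T-ps, chr17:36103521-36104021, passed only then, with 1.6 (FDR 0.0284) in place of 1.14 (exact p = 0.00983). The female loss in H2-DMa was thus the only deposited member call that did not depend on this step.

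Bins assigned to other genes in the interval were called about as often as all bins. Of 243 bins between the members 7 were called in females, 5 higher and 2 lower, and of 293 in males 14, 8 higher and 6 lower, which is 2.88% and 4.78% beside 2.72% and 4.41% of all bins. A place inside H2-Oa that the tables assign to BC051537 was higher in both sexes at overlapping bins, by 1.26 (chr17:34094422-34094922, FDR 0.00375) in females and 1.27 (chr17:34094444-34094944, FDR 0.00164) in males. By the rule on symbols these bins are not members. Hspa1a, which encodes an inducible heat shock protein of the class III region, was higher by 1.20 and 1.37. Tap2, a subunit of the peptide transporter that feeds class I, was higher by 1.03 in males (FDR 0.0306).

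A list of 36 other genes of antigen presentation, covering transporters, proteasome subunits, chaperones, transcription factors and class I-like molecules, had bins at 28 genes in females and 30 in males. In females 1 of 92 bins was called higher (assigned to Ulbp1, 1.13) and 2 lower (Psmb10, -1.57, and Erap1, -1.21). In males 6 of 102 were higher, assigned to Erap1 (1.34, another bin), Tap2 (1.03), 2 bins of Rfxap (1.25 and 1.05), Irf2 (1.21) and Ulbp1 (0.89), and 1 lower, assigned to Cd1d1 (-1.48). Distal intergenic bins made up 2 of the 3 female and 4 of the 7 male calls, those of Ulbp1, Erap1 and Cd1d1 and 1 of Rfxap, with the Ulbp1 bins 121459 and 123384 bp from the assigned TSS, so they do not lie at the genes that name them. The calls were 3.26% of the list's bins in females and 6.86% in males, beside 2.72% and 4.41% of all bins. Psmb10 is an immunoproteasome subunit, Erap1 trims peptides for class I, Rfxap is part of the RFX complex on class II promoters, and Ulbp1 is a ligand of NKG2D. The median change was -0.19 in females and 0.11 in males. B2m, the light chain of class I, had -0.06 and 0.80 (exact p = 0.0462), with no call.

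The second question was whether MO altered the mark at H2 genes, at 3 weeks and again after the offspring had moved to chow. No member passed the threshold used for these tables, an unadjusted p under 0.001 by the exact test, in any of the 4 comparisons. Over all bins 0.211% passed in 3-week females, 0.278% in 3-week males, 0.162% in 8-week females and 0.114% in 8-week males, so that fewer than 1 call among 65 to 105 members would match the background. At FDR 0.05 no bin of any gene passed. At an unadjusted p of 0.05 there were 2 of 100 members in 3-week females (background 7.72%), 9 of 105 in 3-week males (8.83%), 4 of 83 in 8-week females (7.00%) and 1 of 65 in 8-week males (6.50%). The smallest FDR of a member was 0.850, 0.803, 0.926 and 1. The changes below are log2 differences, MO minus control.

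The members' medians over each table were -0.08 (39 bins above 0, 61 below) in 3-week females, 0.03 (54 and 51) in 3-week males, -0.10 (38 and 45) in 8-week females and 0.01 (34 and 31) in 8-week males. The medians of all bins were -0.01, 0.03, 0.01 and 0.00. By group, 3-week females had medians of -0.23 for the Q region (7 of 9 below 0), -0.13 for class II A and E (9 of 12 below), -0.08 for class Ia, -0.08 for the M region, -0.07 for H2-DM and H2-O and 0.10 for the T region (15 of 27 above). In 3-week males they were -0.34 for class Ia (8 of 10 below), -0.05 for the T region, 0.08 for the Q region, 0.09 for the M region (16 of 25 above), 0.14 for class II A and E (8 of 14 above) and 0.17 for H2-DM and H2-O. In 8-week females the medians were 0.30 for H2-DM and H2-O (8 of 13 above 0), 0.09 for the M region, -0.23 for the T region (13 of 22 below), -0.23 for the Q region, -0.17 for class II A and E and -0.07 for class Ia. In 8-week males the groups with 5 or more bins had medians between -0.16 (Q region) and 0.06 (class II A and E).

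**Figure D4:**
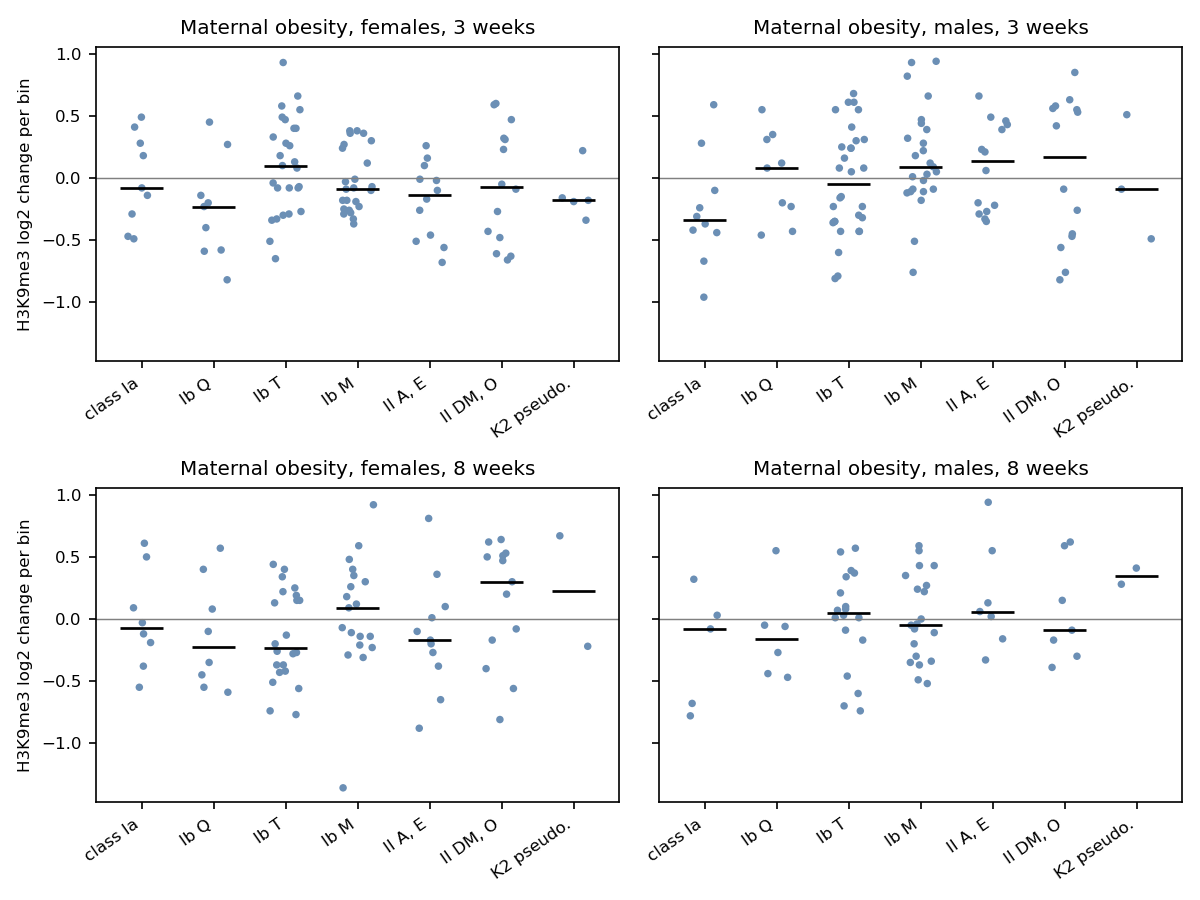
Log2 change in H3K9me3 with maternal obesity (y axis, positive is higher with MO) for each member bin by group of H2 genes, in females and males at 3 and 8 weeks, with group medians as black bars. No bin reached p under 0.001, and points lie on both sides of 0 in nearly every group, with group medians from -0.34 (class Ia, 3-week males) to 0.35 (H2-K2, 2 bins, 8-week males). The lowest point is H2-M10.2 at -1.36 in 8-week females.

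The members of smallest p were scattered over the complex. In 3-week females they were 0.93 at H2-T-ps (chr17:36110308-36110808, exact p = 0.0144) and 0.66 at H2-T3 on the upper side, and -0.82 at H2-Q2 (chr17:35342092-35342592, exact p = 0.0227) and -0.65 at H2-T3 on the lower. The H2-Q2 bin overlapped the promoter window, and males had 0.55 there (exact p = 0.193), a difference of 1.37 (approximate SE 0.56). MO changes of the sexes differed by more than 2 approximate SE at 3 of 45 places at 3 weeks (6.67%, against 5.92% of all such places) and at 0 of 32 at 8 weeks (against 5.24%). In 8-week females they were, on the lower side, -1.36 at H2-M10.2 (chr17:36287557-36287790, exact p = 0.00529, 72.6% masked), -0.81 at a bin over Brd2 assigned to H2-DMa (chr17:34118806-34119306, exact p = 0.0122) and -0.88 at H2-Eb1 (exact p = 0.0470). On the upper side were 0.92 at H2-M10.5 (exact p = 0.0171) and 0.81 at H2-Ab1 (exact p = 0.0517).

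In 3-week males 9 members had p under 0.05, a share of 8.57% against 8.83% of all bins. Of these, 4 were bins of the M region, which held 25 of the 105 members, and all 4 were above 0. These were H2-M10.4 (0.94, chr17:36421032-36421532, exact p = 0.00827), H2-M5 (0.93, exact p = 0.01), H2-M9 (0.82, exact p = 0.0158) and H2-M10.5 (0.66, exact p = 0.0295). The H2-M9 and H2-M10.5 bins are the same that had the highest male age values of the region. The age and MO comparisons share their 3-week control males, so these values are not independent. Females had -0.07 with MO at H2-M10.4, -0.08 at H2-M9 and -0.03 at H2-M10.5. The other 5 were H2-DMb2 (0.85), H2-L (-0.96), H2-DMb1 (-0.82), H2-Bl (-0.81) and H2-DMa (-0.76). In 8-week males the single one was H2-K1, and the others of smallest p in each direction were H2-Ab1 (0.94, exact p = 0.0761), H2-Oa (0.62, exact p = 0.0790) and H2-T10 (-0.74, exact p = 0.0700).

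At some places age and MO can be read at the same bases, among them the called male bins of H2-K1 and H2-Bl. The H2-K1 bin at chr17:33999456-33999956 had 1.14 with age in controls, as given above, and -0.78 with MO at 8 weeks (approximate SE 0.36, exact p = 0.0312, FDR 1). The H2-Bl bin at chr17:36071288-36071587 had 1.15 with age, 0.08 with MO at 3 weeks (exact p = 0.869) and -0.46 with MO at 8 weeks (exact p = 0.177). The age and MO comparisons share their control males, so they are not independent. The female H2-K1 bin had 0.80 with age and -0.38 with MO at 8 weeks (exact p = 0.308). H2-D1 had -0.08, -0.37, -0.55 and 0.32 with MO in 3-week females, 3-week males, 8-week females and 8-week males, none with p under 0.05.

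The signs of MO values at H2 places were compared between sexes and between ages, groups that share no library. Females and males had the same sign at 22 of 45 places at 3 weeks (48.9%, all bins 51.5%) and 14 of 32 at 8 weeks (43.8%, all bins 50.5%). Bins tested at both ages had the same sign at 29 of 51 in females (56.9%, all bins 51.3%) and 25 of 44 in males (56.8%, all bins 50.5%), and 0 of them had p under 0.05 at both, as did 0.377% of all such bins in females and 0.391% in males. The antigen presentation list likewise held 0 bins at p under 0.001 in all 4 comparisons. In the interval between the members, 3 bins of other genes passed, Hspa1a in 3-week females (1.6), Stk19 in 3-week males (1.07) and Hspa1b in 8-week males (-1.51). This was 1 of 284, 1 of 322 and 1 of 214 such bins (0.352%, 0.311% and 0.467%), beside 0.211%, 0.278% and 0.114% of all bins. In 8-week females it was 0 of 226, beside 0.162% of all bins.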

How the data were processed

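H3K9me3 ChIP-seq was deposited as 6 tables, 2 of age (8 against 3 weeks, controls) and 4 of maternal obesity. By the study's methods, reads were aligned with BWA to mm10/GRCm38 by the authors, who then called broad peaks with MACS2, removed blacklisted regions, merged peaks within each sex, divided long ones into bins, counted reads with featureCounts and compared groups with the exact test of edgeR. The deposited log2 fold changes, average log2 CPM, p-values and FDR were read as the authors' own values, because the tables hold no counts per library and the comparisons could not be refitted. One bin per peak is deposited, and how it was chosen is not given in the sources used here, so a printed p may be the smallest of its peak, and p-values, FDR and shares called would then be too favourable. Depth per library was not analysed here. A p-value sets the difference between 2 groups of 4 libraries against their spread, and neither it nor the approximate SE measures the spread of a single bin.

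The sign of the age tables was turned so that positive means higher at 8 weeks. Age was called at FDR under 0.05 and MO at p under 0.001, over all bins. SE was approximated as the absolute change divided by the normal quantile of its p, and for p above 0.5 taken from bins of like level. GC content and repeat masking were computed from GRCm38 and gene overlaps from GENCODE vM21, with Python 3.11.15, pandas 2.3.3, numpy 2.4.6 and SciPy 1.17.1. The trend step, checked on simulated data, used 10 classes each of GC and level. Members and lists were chosen with earlier results of these data known. Named bins were those called, the 2 smallest p in each direction, the 3 highest levels per table and the 5 highest places kept in all 3 tables of a sex. All bins of the classical and chaperone genes were covered with age, singly or as a range, but only some with MO. Others were named after their values were seen.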

Additional observations from a re-analysis of the deposited data

How the results depend on the processing

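The number of H2 bins called with age depended on the threshold and on which bins were counted. In females the 2 calls of 86 bins became 1 at FDR under 0.01 and 1 after the GC and level trend was subtracted. They became 0 of 51 among bins above the median level and 0 of 30 among single-bin peaks. When every chromosome 17 bin between the outermost members was counted, 9 of 329 were called. In males the 4 calls of 99 bins became 1 at FDR under 0.01, 8 at FDR under 0.1 and 1 after the trend was subtracted. They became 2 of 61 without distal intergenic bins and 1 of 36 among single-bin peaks, and over the whole interval 18 of 392. These sets differ in size, and at FDR under 0.05 the share of all bins called was 2.72% in females and 4.41% in males. The remaining age settings stayed within 1.5 times, with 2 to 3 calls in females and 4 to 5 in males. For MO, 0 members were called in each comparison. At p under 0.05 the counts were 2 in 3-week females, 9 in 3-week males, 4 in 8-week females and 1 in 8-week males, and at p under 0.01 they were 1 in 3-week males and 1 in 8-week females. Over the whole interval 1 of 384 bins passed in 3-week females, 1 of 427 in 3-week males and 1 of 279 in 8-week males. The shares of all bins were 0.211%, 0.278% and 0.114%. The other MO settings gave 0. Why the trend step lowered 5 of the 6 deposited age calls was not tested. No paired analysis was possible because the tables hold no values of single libraries, and leaving out each replicate in turn could not be run for the same reason. The low average level, down to a log2 CPM of 1.18 in any table, limits what a single bin can show.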

Other observations

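With 1 bin deposited per peak, a bin can recur only where its peak does, so peaks must be shared at least as often as bins. The counts show how often the bin that stood for a shared H2 peak stayed the same. Over the 3 female tables there were 112 member peaks, of which 68 were in all 3 tables, 21 in 2 and 23 in 1. The same tables held 146 distinct member bins, with 41 in all 3, 41 in 2 and 64 in 1. In males 61 of 111 peaks were in all 3 tables, 36 in 2 and 14 in 1, whereas of 157 bins 31 were in all 3, 50 in 2 and 76 in 1. H2-D1, for example, was represented in males by a bin upstream of the gene in the age table and by one over it, chr17:35263199-35263699, in the MO tables.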
